A study of Mus musculus with 21 samples.

Results

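The Hox cluster genes of E14.5 mouse kidney and forebrain are described here. They are the 39 gene rows, of 23827 rows in each deposited file, whose symbol is Hox, a cluster letter from a to d and a number, and no symbol occurred in more than 1 row. The clusters contributed 11 Hoxa, 10 Hoxb, 9 Hoxc and 9 Hoxd genes, and by paralogue number 8 members belong to groups 1 to 3, 15 to groups 4 to 8 and 16 to groups 9 to 13. The series holds 21 RNA sequencing libraries in 7 groups of 3 from mouse embryos at day 14.5. Total RNA (the transcriptome) and ribosome-bound RNA (the translatome) of whole forebrain and whole kidney came from Sox2Cre+/- embryos, in which the epiblast driver labels the embryo itself. Ribosome-bound RNA of endothelial cells (EC) of both organs came from embryos carrying the tamoxifen-inducible, vascular Cdh5CreERT2+/- driver, and that of the Emx1-lineage from the forebrain of embryos carrying Emx1Cre+/-. Every embryo, also those behind the total RNA libraries, carried 1 copy of Gt(ROSA)26Sor-mCherry-Rpl10a, a Cre-dependent, mCherry-tagged large ribosomal subunit protein under the CAGGS promoter that was targeted in 1 embryonic stem cell clone. Tagged ribosomes were captured on anti-RFP beads (mCherryTRAP), organs of several embryos were pooled for each library, and the forebrain dissection kept part of the diencephalon. In these bulk samples, fewer cells of a type and less RNA per cell cannot be told apart.

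Hox genes encode homeodomain transcription factors that are arranged in 4 clusters, and members at the same place in different clusters (paralogues) resemble each other most. Along the trunk the genes of low number are active from the hindbrain or neck backwards and those of high number only further caudally, while the forebrain develops in front of all of their domains. In the metanephric kidney the group 11 paralogues act redundantly in nephron progenitors, together with the Eya1 and Pax2 proteins and upstream of Six2 and Gdnf, and the group 10 paralogues act in the stroma.

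Library totals were 31343319 to 51331105 reads in the kidney transcriptome, 21760652 to 24605124 in the kidney translatome, 33237550 to 45166528 in kidney EC and 30546034 to 79231692 in the 12 forebrain libraries. The 12 endothelial markers summed to 2553 to 2989 RPKM (reads scaled to transcript length and library size) in kidney EC against 455 to 491 in the kidney translatome, and to 2986 to 3087 in brain EC against 155 to 177 in the brain translatome, so the endothelial label held in both organs. Wt1, a marker of metanephric mesenchyme and podocytes, was 87.9, 91.8 and 94.2 RPKM in the kidney transcriptome. Neurod6, of the Emx1-lineage, was 486, 452 and 512 RPKM in the brain Emx1-lineage translatome against 207, 219.7 and 223 RPKM in the brain translatome. Brain transcriptome replicates 2 and 3 were sequenced in one run with kidney translatome replicates 1 and 2. In both groups these libraries stood above the remaining replicate in markers of the other organ. Wt1 was 0.0226, 0.0972 and 0.0442 RPKM and Tcf21 0.0190, 0.202 and 0.143 RPKM in brain transcriptome replicates 1 to 3, and Neurod6 was 0.399, 0.394 and 0.0214 RPKM in kidney translatome replicates 1 to 3. Counts of Hox genes called between kidney and forebrain, in total RNA and in the translatome, and within kidney are also given without the libraries of this run. Other results, the organ ratios and their medians included, are given only with them. The brain EC, kidney EC and Emx1-lineage libraries each filled a run of their own, so run and group cannot be told apart there.

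Kidney carried reads on nearly the whole Hox complement, whereas the forebrain groups had almost none. Hox genes took 0.1792% ± 0.0024 (SD, n = 3) of all reads in the kidney transcriptome, 0.183% ± 0.0023 in the kidney translatome and 0.05897% ± 0.00042 in kidney EC. The summed level of the members was 847 ± 8.1 RPKM in the transcriptome, 878 ± 11.5 RPKM in the translatome and 290.1 ± 0.86 RPKM in kidney EC, and in the 12 forebrain libraries the members together had between 8 and 218 reads. In the kidney transcriptome 30 members had a mean of at least 5 RPKM, 2 further members lay between 1 and 5, and 7 lay below 1. The translatome had 28 members at 5 RPKM or more and kidney EC 20, and the median member stood at 14.3, 12.0 and 5.50 RPKM in the 3 groups. Between members these levels are comparable only roughly: the transcript length implied by reads and RPKM was within 10% of the annotated exon bases for 28 of 36 members with values, and the ratio of the 2 lengths ran from 0.448 (Hoxc11) to 1.26 (Hoxc8). Hoxa10 stood at 0.642 and Hoxd8 at 0.536, so their RPKM would be lower with the annotated lengths.

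**Figure D1:**
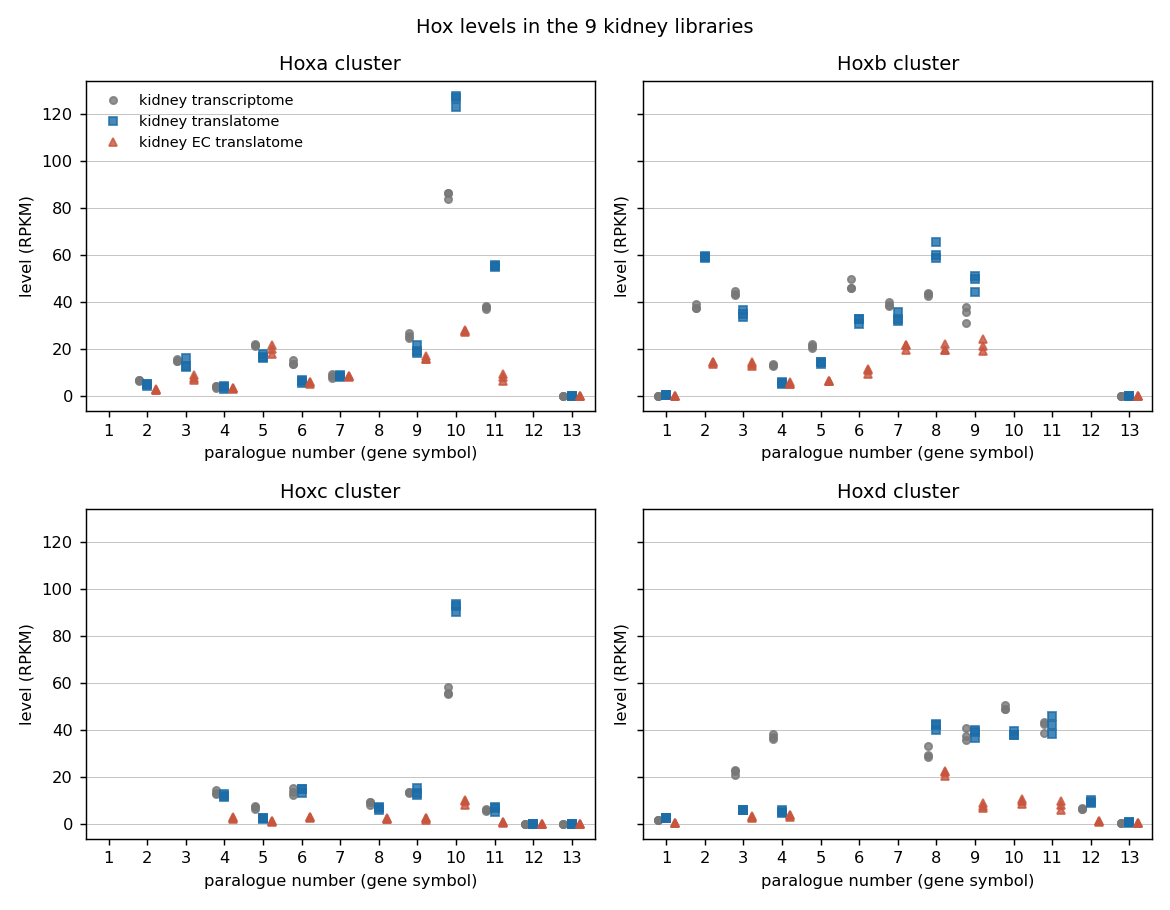
Level (RPKM, linear axis) of Hox genes in the 3 kidney groups, with 1 panel per cluster and the paralogue number along the horizontal axis; each symbol is 1 library. Hoxa10 led all 3 groups, at a mean of 85.7 RPKM in the transcriptome, 126 RPKM in the translatome and 27.8 RPKM in kidney EC.

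Hoxa10 and Hoxc10 had the highest mean RPKM in the kidney transcriptome and translatome, and Hoxa10 also in EC. The rank of Hoxa10 depends on its implied length, which was 0.642 of its annotated exon bases. Hoxa10, a regulator of lumbar and genitourinary patterning, measured 83.9, 86.6 and 86.7 RPKM in the 3 transcriptome libraries, 128, 127 and 123 in the translatome and 27.5, 28.1 and 27.8 in EC. Hoxc10, which specifies lumbar motor neurons, measured 55.4, 58.1 and 55.7 RPKM in the transcriptome, 93.0, 93.7 and 90.4 in the translatome and 9.96, 7.97 and 9.65 in EC. Hoxd10, its paralogue in the D cluster, measured 49.0, 48.7 and 50.6, 39.4, 37.7 and 38.0 and 9.67, 8.58 and 10.6 RPKM in the same order. The 3 groups of libraries did not overlap for any of these genes, and EC was the lowest throughout. Among the group 11 paralogues, Hoxa11 measured 37.1, 38.0 and 38.3 RPKM in the transcriptome, 55.5, 55.8 and 55.1 in the translatome and 8.18, 6.63 and 9.42 in EC. For Hoxd11 the values were 43.2, 38.7 and 42.7 RPKM, 45.8, 38.3 and 42.0 RPKM and 7.88, 6.03 and 9.51 RPKM. Hoxc11 was several-fold lower, at 6.12, 5.35 and 6.07, 6.62, 5.19 and 7.36 and 0.640, 0.367 and 0.824 RPKM. Transcriptome and translatome overlapped for Hoxd11 and Hoxc11 but not for Hoxa11, and the EC libraries lay below both for all 3. The libraries carry no strand information, and 35% of the Hoxa11 exon bases lie opposite the noncoding gene Hoxa11os, which measured 38.4, 34.7 and 36.8 RPKM in the transcriptome, so reads of the 2 genes cannot be told apart there.

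The same group 10 and 11 genes were essentially without reads in forebrain. Hoxa10 had 0, 17 and 10 reads in brain transcriptome replicates 1 to 3 and 0 in each of the other 9 forebrain libraries. Hoxd11 had 0, 7 and 6 reads, and Hoxc10 0, 6 and 4, in the same 3 libraries. These reads sat in the 2 brain libraries that shared a run with kidney libraries, and the part of that run in them was not tested. By counts over each group, scaled by effective library size, kidney exceeded forebrain for Hoxa10 854-fold in total RNA (95% counting interval 587 to 1297), at least 7793-fold in the translatome and at least 3055-fold in EC. A bound sets the group without reads at 3 counts. For Hoxd11 the organ ratio was 1695 (991 to 3184) in total RNA and at least 5297 in the translatome. For Hoxa11 it was 1073 (544 to 2486) in total RNA and at least 2962 in the translatome, and it was 2361 (423 to 93310) in EC, where brain EC had 1 read.

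Group 9 was broadly present and group 13 almost absent. Hoxa9, known from blood progenitors and limb, measured 27.0, 25.6 and 24.7 RPKM in the transcriptome, 21.7, 18.4 and 19.0 in the translatome and 15.9, 17.0 and 16.0 in EC. Hoxb9 measured 31.2, 35.8 and 37.9, 44.2, 49.8 and 51.4 and 21.1, 24.2 and 19.3 RPKM, and it shares with its group the patterning of thoracic skeleton. Hoxd9 was at 35.7, 37.3 and 40.9 RPKM in the transcriptome and 36.3, 40.0 and 39.2 in the translatome, and at only 7.46, 6.63 and 8.79 in EC. The EC libraries of Hoxa9 lay close under the translatome, whereas those of Hoxd9 lay several-fold lower. Hoxc9, a repressor of forelimb-level motor neuron fates, measured 13.7, 13.6 and 13.0, 15.2, 13.0 and 12.1 and 2.50, 1.81 and 2.62 RPKM. Hoxd12, known from the distal limb, measured 6.87, 6.24 and 6.23, 10.3, 8.64 and 9.30 and 1.19, 0.566 and 1.36 RPKM. Hoxc12 had no read in any of the 21 libraries, which allows up to 0.0428 CPM (counts scaled to library size) in the kidney translatome, the shallowest group. Hoxa13, needed in limb and cloaca, had 0 reads in the kidney transcriptome and translatome and 1, 4 and 3 in EC, Hoxb13 had 1 read in the 9 kidney libraries, and Hoxc13 stayed under 0.0190 RPKM. Hoxd13 was the one group 13 member with a measurable kidney level, at 0.172 to 0.743 RPKM over these libraries.

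Groups 4 to 8 make up the middle of each cluster. Hoxb8, known from thoracic and lumbar patterning, measured 44.0, 43.4 and 42.5 RPKM in the transcriptome, 60.3, 65.6 and 58.9 in the translatome and 19.7, 22.1 and 19.7 in EC. Hoxd8 measured 29.4, 28.4 and 33.3, 40.2, 42.5 and 41.9 and 22.0, 20.5 and 22.5 RPKM. Hoxc8 was lower, at 9.27, 9.27 and 8.18, 6.89, 7.08 and 5.88 and 2.19, 1.86 and 2.48 RPKM. For Hoxb8 and Hoxd8 the translatome was the highest of the 3 groups, and for Hoxc8 the transcriptome was. Hoxb7, a gene of the ureteric bud whose promoter is used to drive transgenes there, measured 38.2, 38.7 and 39.9, 31.8, 35.9 and 32.9 and 21.8, 21.8 and 19.8 RPKM. Hoxa7 measured 9.36, 7.73 and 8.53, 8.64, 9.12 and 8.30 and 8.28, 8.41 and 8.65 RPKM, and its 3 groups of libraries overlapped. Hoxb6 reached 50.1, 46.0 and 46.2 RPKM in the transcriptome, 30.7, 33.0 and 32.8 in the translatome and 10.9, 9.22 and 11.4 in EC. Both Hoxb7 and Hoxb6 were highest in total RNA and lowest in EC. Hoxa6 measured 15.4, 13.7 and 13.8, 7.02, 5.51 and 6.53 and 5.13, 5.90 and 5.98 RPKM, so that only total RNA stood apart. Hoxc6, which marks brachial motor neurons, measured 13.6, 15.4 and 12.4, 14.9, 14.8 and 13.3 and 2.87, 2.65 and 2.78 RPKM, so that only EC stood apart.

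Hoxa5, a regulator of lung and cervical development, kept a similar level in the 3 groups, at 22.0, 21.5 and 21.9 RPKM in the transcriptome, 17.9, 16.2 and 16.7 in the translatome and 19.9, 21.6 and 17.9 in EC. Hoxb5 measured 22.1, 21.4 and 20.4, 14.7, 14.3 and 13.8 and 6.36, 6.64 and 6.39 RPKM. Hoxc5 measured 7.56, 6.96 and 6.13, 2.37, 2.47 and 2.08 and 1.06, 1.09 and 0.935 RPKM. Of the 3 group 5 paralogues only Hoxa5 had EC libraries at or above its translatome libraries. Group 4, which patterns the neck vertebrae, contained the widest gap between total and ribosome-bound RNA. Hoxd4 measured 36.8, 36.0 and 38.3 RPKM in the transcriptome and 5.02, 4.52 and 5.71 in the translatome, and 2.89, 3.53 and 3.56 in EC. Hoxb4, also known from blood stem cells, measured 13.9, 13.0 and 13.3, 5.17, 6.17 and 5.41 and 5.27, 6.00 and 5.23 RPKM. Hoxc4 measured 13.2, 14.2 and 12.7, 11.9, 12.8 and 11.4 and 3.09, 2.20 and 2.65 RPKM. Transcriptome and translatome were thus far apart for Hoxd4 and Hoxb4 and close for Hoxc4, and Hoxa4 stayed between 2.96 and 4.47 RPKM in all 9 libraries.

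Groups 1 to 3 pattern hindbrain and pharyngeal arches. Hoxb3 measured 43.1, 43.7 and 44.8 RPKM in the transcriptome, 35.0, 36.5 and 33.8 in the translatome and 13.6, 14.5 and 12.6 in EC. Hoxa3, needed for thymus and parathyroid, measured 16.0, 14.8 and 14.8, 16.1, 12.8 and 12.3 and 7.64, 8.99 and 6.97 RPKM. Hoxd3 measured 22.9, 20.6 and 22.6, 6.00, 5.75 and 5.75 and 2.53, 2.76 and 3.14 RPKM. For all 3 every EC library lay below every translatome library, and Hoxd3 alone lost most of its level between transcriptome and translatome. Hoxb2 measured 37.6, 37.4 and 39.1, 59.7, 59.4 and 58.7 and 13.7, 14.4 and 14.7 RPKM. Hoxa2, the selector gene of the second pharyngeal arch, measured 6.85, 6.46 and 6.71, 5.33, 4.96 and 4.25 and 2.73, 2.83 and 2.78 RPKM. Hoxb2 was highest in the translatome and Hoxa2 in the transcriptome. Annotated overlaps limit these genes: 63.9% of Hoxb3 and 58.5% of Hoxb2 exon bases lie opposite Hoxb3os, and 88% of Hoxd3 and 45.1% of Hoxd4 exon bases are shared on the same strand with the readthrough gene Gm28230 or, for Hoxd3, with longer Hoxd4 transcripts. Of the group 1 genes, Hoxb1 was at 0 to 0.311 RPKM and Hoxd1 at 0.197 to 2.68 RPKM in the kidney libraries.

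In the order of mean RPKM, which depends on the transcript lengths used, the leading genes of the kidney transcriptome were Hoxa10, Hoxc10, Hoxd10, Hoxb6, Hoxb3 and Hoxb8. Hoxa10 and Hoxc10 were each separated from the next gene, but from Hoxb3 down to Hoxb9 each gene's libraries overlapped those of the next. The translatome began with Hoxa10, Hoxc10, Hoxb8, Hoxb2 and Hoxa11, which made up 44.9% of the summed level, and Hoxb8 and Hoxb2 overlapped. In EC the order was Hoxa10, then Hoxd8, Hoxb9, Hoxb7, Hoxb8 and Hoxa5, and from Hoxd8 to Hoxa5 the libraries of each gene overlapped those of the next. Without scaling to length, Hoxa10 had 2409, 1796 and 2251 reads in EC and Hoxb9 2532, 2142 and 2137.

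As shares of the summed Hox RPKM, kidney EC had a profile unlike that of whole kidney. The Hoxa cluster made up 26.0% ± 0.23 (SD, n = 3) of the transcriptome, 29.2% ± 0.71 of the translatome and 35.0% ± 0.87 of EC. The Hoxb share was 33.2% ± 0.096, 33.1% ± 1.1 and 39.1% ± 1.7 in the same order. Hoxc was 16.8% ± 0.29 of the translatome and 7.15% ± 0.84 of EC, and Hoxd was 26.8% ± 0.85 in the transcriptome, 21.0% ± 0.53 in the translatome and 18.8% ± 1.9 in EC. Paralogue group 10 was the largest in the transcriptome, at 22.6% ± 0.41, and in the translatome, at 29.2% ± 0.18, but stood at 16.1% ± 0.60 in EC beside group 9 at 16.5% ± 0.57. Group 11 was 11.8% ± 0.53 of the translatome and 5.69% ± 1.2 of EC. Groups 5 and 7 had larger shares in EC, at 9.41% ± 0.72 and 10.2% ± 0.36, than in the translatome, at 3.81% ± 0.12 and 4.81% ± 0.26. Group 4 was 8.00% ± 0.034 of the transcriptome and 3.02% ± 0.077 of the translatome. No test was run on shares, which move together by construction.

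**Figure D2:**
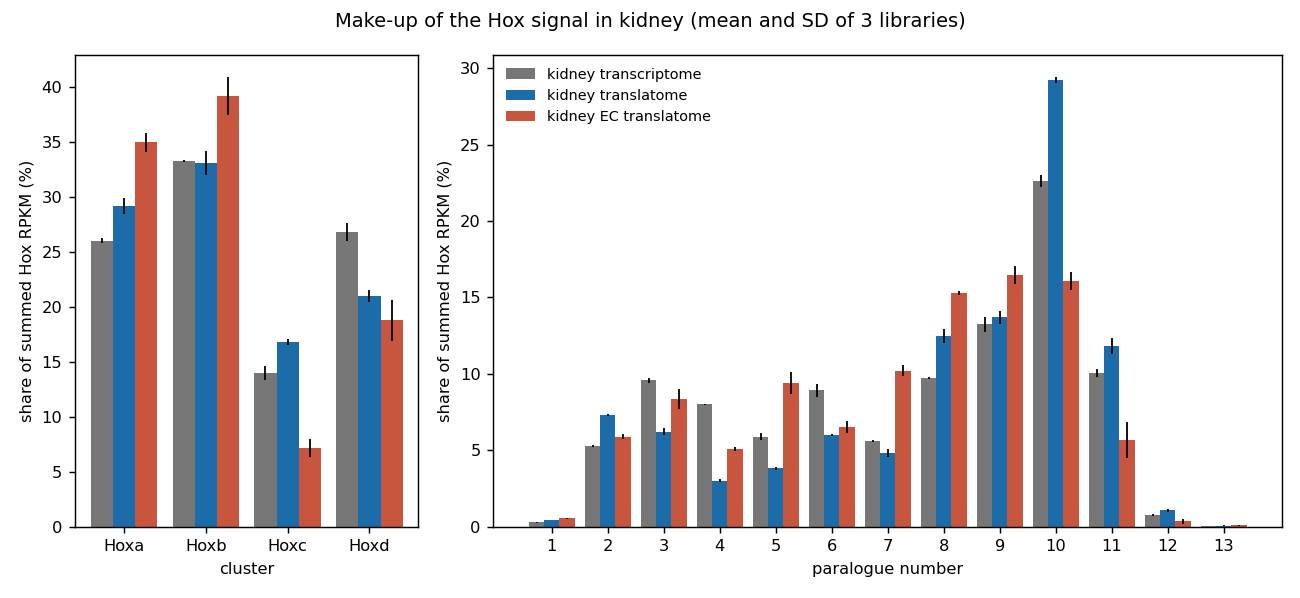
Share (percent of the summed Hox RPKM) held by each cluster and by each paralogue group in the kidney transcriptome, translatome and EC; bars are means of 3 libraries with SD. The Hoxc share was 16.8% in the translatome and 7.15% in EC, and the share of paralogue group 10 was 29.2% and 16.1%.

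The organ comparison asked which Hox genes separate kidney from forebrain, and was fitted across all genes with edgeR (quasi-likelihood test, Benjamini-Hochberg adjustment, threshold 0.001). In total RNA 35 of 36 members with reads were higher in kidney, against 26.3% of all 19841 genes tested. In the translatome 35 of 37 were higher, against 26.2% of all genes, and in EC 34 of 37, against 16.9%. None was lower in kidney in any of the 3 fits, where 27.2%, 27.2% and 20.1% of all genes were, and edgeR gave none lower at an unadjusted p under 0.05 and DESeq2 called none. Of the 39 members, 11 had no read in the brain transcriptome, 31 none in the brain translatome and 21 none in brain EC. A member without forebrain reads could not come out lower in kidney. The lack of lower calls was thus in part fixed beforehand, most of all in the translatome. The members tested that did not pass were Hoxc13 in total RNA, Hoxb13 and Hoxc13 in the translatome, and Hoxa13, Hoxb1 and Hoxc13 in EC. With genes lacking forebrain reads set at their bound, the median organ ratio was at least 1022 in total RNA (35 members, 8 at the bound). It was at least 742 in the translatome (35 members, 27 at the bound) and at least 288 in EC (36 members, 18 at the bound). The medians hold different numbers of bounds, so their order is not read as a difference between the 3 comparisons. Medians over all genes in these 3 fits were within 0.02 of 0 on the log2 scale. Without the libraries of the run that mixes organs, 34 members were higher in total RNA and 34 in the translatome, where 1 brain transcriptome library and 1 kidney translatome library remained and were assumed to vary like the 3 libraries they were compared with. In EC the organ ratio of Hoxd8 was 14.0 (12.6 to 15.6) and that of Hoxb4 32.7 (25.8 to 41.9).

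Within the kidney, the EC translatome held less of most Hox mRNAs than the whole-organ translatome, and the Hoxa cluster had the fewest losses. Of 38 members tested, 23 were lower in EC, against 15% of all genes tested, 2 were higher, against 16.7%, and 13 did not pass the threshold. The median member differed by -1.10 on the log2 scale, where the median of all genes was -0.04. In the Hoxc cluster 7 of 8 members were lower (median -1.92), in Hoxd 7 of 9 (median -1.64) and in Hoxb 7 of 10 (median -1.13), whereas in Hoxa 2 of 11 were lower and 2 higher (median 0.14). By position, 10 of 15 members of groups 9 to 13 were lower (median -1.98), 8 of 15 of groups 4 to 8 (median -0.58) and 5 of 8 of groups 1 to 3 (median -0.86). Whether these classes differ from one another was not tested.

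**Figure D3:**
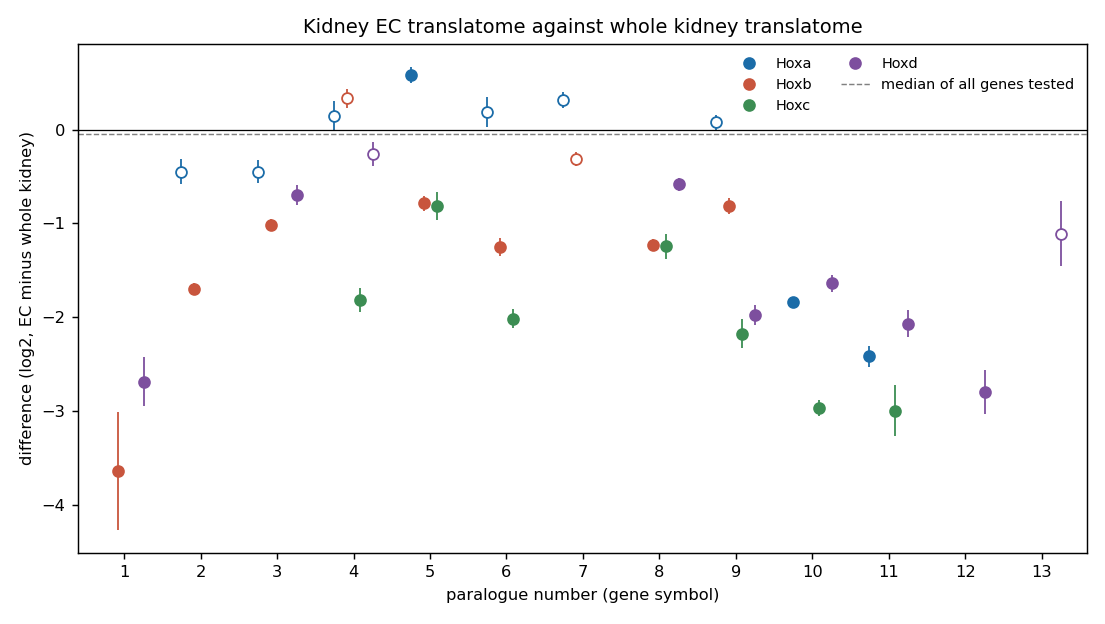
Log2 difference between kidney EC and the kidney translatome for 34 of 38 Hox genes tested, by cluster and paralogue number, with the SE; open symbols did not pass an adjusted p of 0.001, the dashed line is the median of all genes, and genes with an SE of 0.7 or more (Hoxa13, Hoxb13 and Hoxc13) are among those not drawn. Hoxa genes 2 to 9 lie between -0.45 and 0.58, while Hoxa10 (-1.84), Hoxa11 (-2.42) and all Hoxc and Hoxd genes drawn lie below 0.

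All 6 genes of groups 10 and 11 were lower in EC. Relative to the translatome Hoxa10 was -1.84 ± 0.05 (SE; adjusted p = 7.54e-10), Hoxc10 -2.97 ± 0.09 (adjusted p = 7.19e-10) and Hoxd10 -1.64 ± 0.09 (adjusted p = 6.13e-08). Hoxa11 was -2.42 ± 0.11 (adjusted p = 2.04e-08), Hoxd11 -2.07 ± 0.14 (adjusted p = 4.21e-07) and Hoxc11 -2.996 ± 0.27 (adjusted p = 3.66e-06). Also lower were Hoxd12 at -2.80 ± 0.24, Hoxc9 at -2.18 ± 0.15 and Hoxd9 at -1.98 ± 0.10. Group 9 was uneven across clusters, since Hoxb9 was at -0.82 ± 0.08 and Hoxa9, which did not pass, at 0.08 ± 0.08 (adjusted p = 0.438). Smaller losses were those of Hoxb8 at -1.23 ± 0.06, Hoxb3 at -1.02 ± 0.06, Hoxb5 at -0.79 ± 0.08 and Hoxd8 at -0.58 ± 0.07. Kidney EC replicate 2 had the lowest value for 8 of the 12 measured members of group 9 and above, and replicate 3 the highest for 7 of 12. The nephron progenitor gene Six2 was 13.4, 12.0 and 15.6 RPKM and Pax2 15.3, 12.6 and 18.1 RPKM in these EC replicates.

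The Hoxa genes of groups 2 to 9 went the other way or did not pass. Hoxa5 was 0.58 ± 0.08 higher in EC (adjusted p = 1.39e-04), although 1 EC library lay level with the highest translatome library in RPKM. The call depended on the scaling: with total counts in place of TMM factors, which shifts the median of all genes by -0.37, the difference was 0.21 (adjusted p = 0.0521). It was also lost without kidney translatome replicate 3 (adjusted p = 0.00156). Without the 2 kidney translatome libraries of the mixed run no member was called higher and 17 were lower, in a fit that leaves 1 translatome library, takes its spread from the 3 EC libraries and so tells little about the higher calls. Not past the threshold were also Hoxa4 (0.14 ± 0.16), Hoxa6 (0.19 ± 0.16), Hoxa7 (0.32 ± 0.09), Hoxb4 (0.33 ± 0.10), Hoxb7 (-0.31 ± 0.08) and Hoxd4 (-0.26 ± 0.13). The reference mattered for genes that ribosome-bound RNA holds less of: against total RNA, Hoxd4 was -3.05 (adjusted p = 2.50e-09), Hoxa6 -0.91 and Hoxb4 -0.86, while Hoxd8 was -0.06 (adjusted p = 0.537).

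The promoter windows of a gene on each side of this contrast, Hoxa5 and Hoxd11, are shown to give the sequence context, each from 250 bases before to 50 bases after the annotated start (RefSeq, GRCm38.p6). Capitals mark matches on either strand to TTTATG, a site bound by caudal (CDX) proteins, to TATAAA or to the HOX-PBX motif TGATNNAT.
Hoxa5, chr6:52204538-52204837, minus strand: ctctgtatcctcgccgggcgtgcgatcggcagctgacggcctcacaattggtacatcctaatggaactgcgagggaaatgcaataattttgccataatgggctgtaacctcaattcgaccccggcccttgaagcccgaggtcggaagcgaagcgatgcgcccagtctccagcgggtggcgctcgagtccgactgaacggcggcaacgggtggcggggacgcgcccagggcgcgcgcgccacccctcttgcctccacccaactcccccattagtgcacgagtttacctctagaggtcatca
Hoxd11, chr2:74679308-74679607, plus strand: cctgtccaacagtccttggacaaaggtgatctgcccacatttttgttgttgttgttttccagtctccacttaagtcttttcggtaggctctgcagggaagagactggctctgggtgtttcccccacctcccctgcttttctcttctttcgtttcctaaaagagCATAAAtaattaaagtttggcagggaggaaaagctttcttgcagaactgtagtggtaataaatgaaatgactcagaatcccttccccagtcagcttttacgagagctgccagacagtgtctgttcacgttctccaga
The Hoxa5 window held no match and 29 CpG dinucleotides, and the Hoxd11 window printed held 1 match, to TTTATG at positions 164 to 169, and 4 CpG. The table lists a second start of Hoxd11, whose window (chr2:74682073-74682372) held 25 CpG, no TTTATG and 1 match to TGATNNAT at positions 178 to 185, so nothing about the gene is read from either window alone. Windows were found for 22 of the 39 members, 24 windows in all. TTTATG occurred in 20.8% of them against 11.9% of all 32851 promoter windows, TATAAA in 16.7% against 13.6%, and TGATNNAT in 16.7% against 8.85%. The Hox windows had a median of 14.5 CpG where all windows had 7, at a GC content of 57.7% and 52.7%. A match is only a run of letters, and its use in these cells was not measured.

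Markers of other kidney cells moved with these genes. From kidney translatome to EC the summed level of the 12 nephron progenitor and epithelial markers was 517 to 528 RPKM and then 309 to 323 RPKM, with 8 lower and 3 higher. The 10 ureteric bud markers summed to 251 to 343 RPKM in the translatome and 70.4 to 84.7 RPKM in EC, with 8 lower. The 10 stromal markers summed to 835 to 952 RPKM and 352 to 497 RPKM, with 7 lower. No marker of these lists was without reads in EC, Six2 and Foxd1 (13.3, 10.3 and 13.3 RPKM) included, and their part in the Hox values was not tested. The 12 endothelial markers were all higher, with a median log2 difference of 3.06.

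Partners and regulators of Hox proteins, from lists fixed for this account, are given for the same contrast. All 8 genes listed as metanephric partners and targets of group 11 proteins were lower in EC (median -1.71). Among them Six2, which maintains nephron progenitors, was -2.71 ± 0.11, the partner Eya1 -2.30 ± 0.08, and the target Gdnf, the ligand that draws out the ureteric bud, -1.36 ± 0.16. Eya1, Pax2, Six2 and Wt1 also stand in the nephron progenitor list above, so the 2 lists are not separate results. Of 9 Hox cofactors of the Pbx, Meis and Pknox families, which bind DNA with Hox proteins, 4 were lower and none higher. Meis1 was at -1.81 ± 0.10, with 53.2, 49.0 and 45.6 RPKM in the translatome and 12.3, 9.42 and 11.2 RPKM in EC, and Meis3, Pknox2 and Pbx4 were the others that fell. Of 14 chromatin regulators, 3 were higher, among them the Trithorax methyltransferase gene Kmt2a (1.22 ± 0.14), and 4 lower, among them the Polycomb genes Ring1 (-0.97 ± 0.10) and Bmi1 (-0.51 ± 0.07). Of 10 posterior patterning inputs 2 rose, the retinoic acid receptor gene Rarg (1.18 ± 0.10) and Cyp26b1 (2.51 ± 0.08), whose enzyme degrades retinoic acid, and 2 fell, Aldh1a2 (-1.996 ± 0.17), whose enzyme makes it, and Gdf11 (-0.998 ± 0.08). In this contrast 16.7% of all genes were higher and 15% lower, and nothing particular to the regulators or inputs is read from counts of this size. The 3 Cdx genes stayed at or below 0.304 RPKM in every kidney library. Of 9 noncoding rows of the clusters 8 could be tested and 1 was lower, Hoxa11os at -2.81 ± 0.12.

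The comparison of ribosome-bound with total kidney RNA asked how far the members differ in ribosome association, and both libraries of a replicate number came from the same tissue sample. Of 37 members tested, 8 were higher in the translatome, against 14.9% of all genes, and 11 lower, against 15.8%, and the median member was at 0.02 where the median of all genes was -0.03. Those higher were Hoxc10 (0.71 ± 0.04), Hoxb2 (0.64 ± 0.04), Hoxa11 (0.55 ± 0.04), Hoxd12 (0.55 ± 0.09), Hoxa10 (0.52 ± 0.04), Hoxb8 (0.51 ± 0.04), Hoxb9 (0.47 ± 0.07) and Hoxd8 (0.45 ± 0.06). By position, 5 of 14 members of groups 9 to 13 were higher and 2 lower (median 0.37), and of 15 members of groups 4 to 8 there were 2 higher and 7 lower (median -0.36). Whether these groups differ was not tested. The losses reached further. Hoxd4 was -2.87 ± 0.08 (adjusted p = 1.13e-08), Hoxd3 -1.91 ± 0.06 (adjusted p = 2.10e-08), Hoxc5 -1.58 ± 0.11 (adjusted p = 1.14e-06), Hoxb4 -1.26 ± 0.08 (adjusted p = 6.26e-07) and Hoxa6 -1.17 ± 0.12 (adjusted p = 1.87e-05). For each of these 5 genes every translatome library lay below every transcriptome library. The other 6 that fell were Hoxb5, Hoxb6, Hoxa9, Hoxa5, Hoxd10 and Hoxb3, at -0.58 to -0.35. With the replicate as a block, which follows the shared tissue, Hoxa2 (-0.45), Hoxb7 (-0.21), Hoxc8 (-0.43) and Hoxd1 (0.66) passed as well. In that fit the spread of a typical gene was taken wholly from all genes together (median prior degrees of freedom Inf, against 5.98 in the main fit). The added calls rest on this as well as on the pairing. Without kidney translatome replicate 3 the count of members called higher was 5, and within the 1 run that holds libraries of both kinds it was also 5, with 8 lower. That run holds 3 transcriptome libraries and 1 translatome library, and the single library was assumed to vary like the others.

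**Figure D4:**
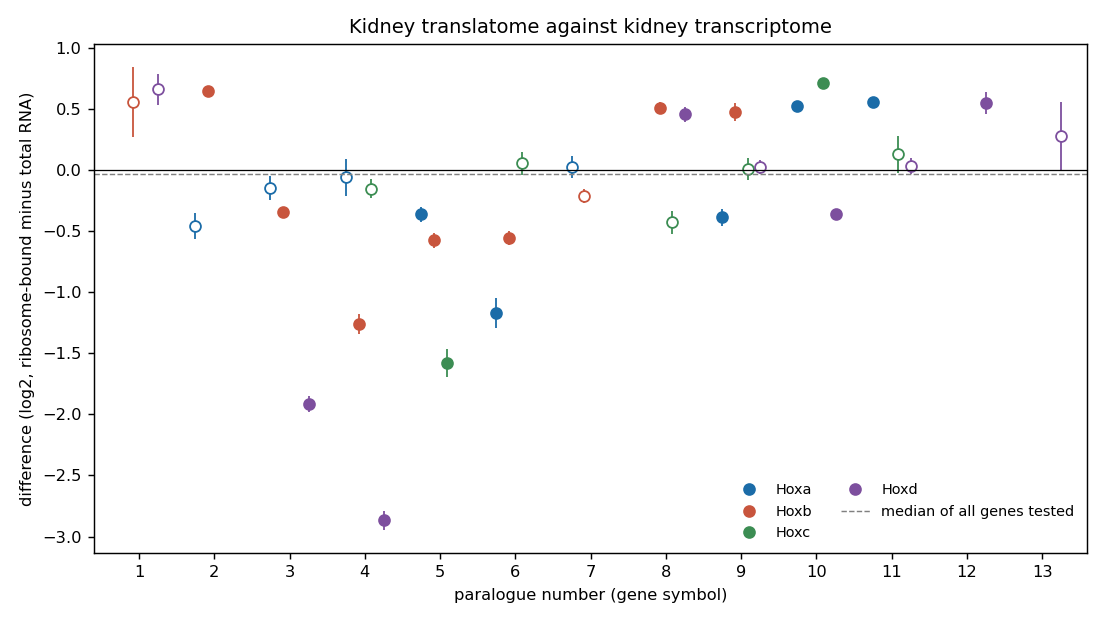
Log2 difference between the kidney translatome and kidney total RNA for 34 of 37 Hox genes tested, by cluster and paralogue number, with the SE; open symbols did not pass an adjusted p of 0.001, the dashed line is the median of all genes, and Hoxb13 and Hoxc13 (SE of 0.7 or more) are among those not drawn. Hoxd4 (-2.87), Hoxd3 (-1.91) and Hoxc5 (-1.58) are the lowest.

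After these values were seen, the place of the clusters' miRNA genes was looked up. The 3 members with a miRNA gene in an intron of their row were Hoxd4 and Hoxd3, which span Mir10b, and Hoxc5, which spans Mir615, and these were the 3 lowest of the 37. Other members had a miRNA gene near but outside their row. Counted from the lowest, Hoxb4 (Mir10a, 1019 bases away) ranked 4 and Hoxa9 (Mir196b, 2724 bases) ranked 10. Hoxa10 (Mir196b, 1047 bases) ranked 29 and Hoxc10 (Mir196a-2, 1472 bases) ranked 36, both among those called higher. Whether place and difference are linked was not tested. The mature miRNAs of Mir10a, Mir10b, Mir196a-1 and Mir615 are shown for identification (RefSeq, GRCm38.p6), with the seed, bases 2 to 8, in capitals.
mmu-miR-10a-5p, chr11:96317186-96317208, plus strand: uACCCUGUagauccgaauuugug
mmu-miR-10b-5p, chr2:74726074-74726096, plus strand: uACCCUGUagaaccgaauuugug
mmu-miR-196a-5p (Mir196a-1), chr11:96265187-96265208, plus strand: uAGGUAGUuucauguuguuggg
mmu-miR-615-3p, chr15:103014969-103014990, plus strand: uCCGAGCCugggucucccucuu
The first pair share the seed ACCCUGU. Poly(A) libraries do not count mature miRNAs, so reads on these rows come from longer transcripts across the hairpin. Mir10a had 16, 20 and 13 reads in the transcriptome, 0, 1 and 0 in the translatome and 1, 2 and 1 in EC, a translatome difference of -4.49 ± 0.78 (adjusted p = 6.73e-04). Mir196a-1 had 131, 104 and 99 reads in the transcriptome and 20, 22 and 28 in the translatome, a difference of -1.45 ± 0.22 (adjusted p = 2.14e-04). Mir10b and Mir615 had at most 3 reads in a kidney library, so no difference was detectable. Among all 9 noncoding rows, 1 was higher in the translatome, Hoxa11os (0.42 ± 0.05), and these 2 were lower.
The promoter of Hoxd4, the member with the widest gap, is shown under the same marking.
Hoxd4, chr2:74721728-74722027, plus strand: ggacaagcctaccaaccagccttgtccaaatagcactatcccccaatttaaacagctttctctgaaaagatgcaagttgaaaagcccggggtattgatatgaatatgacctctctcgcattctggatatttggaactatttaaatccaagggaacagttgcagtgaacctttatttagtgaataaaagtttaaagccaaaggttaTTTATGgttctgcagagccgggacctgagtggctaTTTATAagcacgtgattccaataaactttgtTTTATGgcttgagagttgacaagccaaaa
It held TATAAA at positions 241 to 246 and TTTATG at 206 to 211 and 272 to 277, with 4 CpG. The Hoxd3 row spans this window, and Gm28230 shares exon bases with both genes, so reads of a readthrough RNA cannot be told apart from those of Hoxd3 and Hoxd4.

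Among the forebrain groups brain EC held the most Hox reads, and most of them fell on a single gene. Of the 39 members, 6 had no read in any of the 12 forebrain libraries (Hoxa4, Hoxa6, Hoxb1, Hoxc8, Hoxc11 and Hoxc12), and apart from Hoxd8 no member exceeded 0.190 RPKM in any of them. The 3 brain EC libraries held 553 Hox reads, of which 372 fell on Hoxd8 and 525 on Hoxd8, Hoxb4, Hoxb2, Hoxb3 and Hoxd9 together, while 13 further members shared 28 reads. Hoxd8 had 123, 102 and 147 reads in brain EC, 3, 6 and 2 in the brain translatome, 1, 5 and 4 in the brain transcriptome and 2, 1 and 0 in the Emx1-lineage, at 1.51 RPKM on average in brain EC. Hoxb4 had 23, 21 and 28 reads in brain EC and 1, 1 and 0 in the brain translatome. The brain EC libraries lay above every other forebrain library for both genes. Brain EC exceeded the brain translatome 25.7-fold for Hoxd8 (95% counting interval 14.2 to 51.8) and 27.3-fold for Hoxb4 (7.29 to 230).

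These were the 2 members called higher in brain EC, of 20 tested, against 24.8% of all genes, and none was called lower, against 21.4%, by edgeR or DESeq2. Of the 39 members, 31 had no read in the brain translatome and so could not be called lower in brain EC. The brain translatome held 42 Hox reads in all, so the shares of all genes are no measure for these counts. The edgeR log2 differences were 4.63 ± 0.34 for Hoxd8 (adjusted p = 5.60e-08) and 4.57 ± 0.60 for Hoxb4 (adjusted p = 1.73e-05). Both stayed past the threshold without any 1 library, with log2 differences from 4.31 to 5.27 and from 4.14 to 5.01. At an unadjusted p under 0.05 there were 6 members, 5 of them higher. Besides Hoxd8 and Hoxb4 these were Hoxd9, with 13, 3 and 9 reads in brain EC and none in the brain translatome (at least 6.32-fold), Hoxb2 with 2, 15 and 13 against 1, 0 and 0, and Hoxb3 with 3, 8 and 15 against 0, 0 and 1. Replicate 1 was the lowest for Hoxb2 and Hoxb3 and the highest for Hoxd9. Hoxb9 ran the other way, with 1, 2 and 0 reads in brain EC, 9, 8 and 5 in the brain translatome, 7, 12 and 5 in the brain transcriptome and 11, 4 and 6 in the Emx1-lineage, a ratio of 0.103 (0.0198 to 0.344) that did not pass (adjusted p = 0.00269). Hoxa10, Hoxc10, Hoxb8 and Hoxd11, leading genes of the kidney groups, had 0 reads in brain EC, and Tcf21 was 0.0263, 0 and 0.0142 RPKM there. Neural markers were still present in brain EC, at 782 to 954 RPKM against 2489 to 2504 in the brain translatome, and the 10 stromal markers summed to 135 to 213 RPKM against 111 to 131. Their part in the Hox values was not tested.

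**Figure D5:**
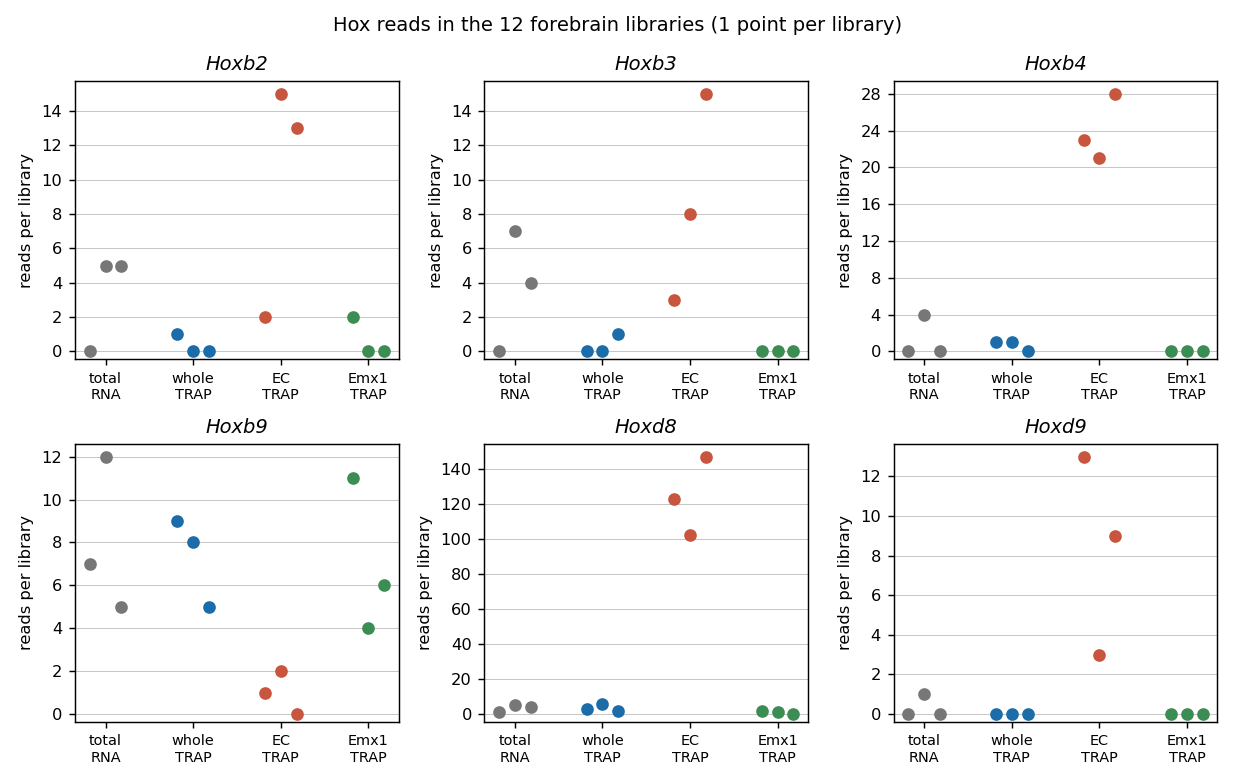
Reads per library on Hoxb2, Hoxb3, Hoxb4, Hoxb9, Hoxd8 and Hoxd9 in the 12 forebrain libraries, by group; each point is 1 library and each panel has its own axis. Hoxd8 (102 to 147 reads) and Hoxb4 (21 to 28 reads) stand out in brain EC, and Hoxb9 is lowest there (0 to 2 reads).

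Neither of the other forebrain comparisons gave a call. Between the Emx1-lineage and the brain translatome edgeR called 0 of 13 members, where 9.2% of all genes were higher and 12.8% lower, and DESeq2 also called 0, with 1 member at an unadjusted p under 0.05. Between the brain translatome and total RNA 0 of 28 were called by either tool, where 18.6% of all genes were higher and 18.5% lower, and 5 members were lower at an unadjusted p under 0.05. With so few reads only large differences would be detectable.

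A last fit, over kidney EC, brain EC and both whole-organ translatomes, asked whether the organ difference is the same in endothelium as in the whole organ. It was smaller in EC for 5 of 38 members tested, against 16.5% of all genes. It was larger for none by edgeR or DESeq2, against 8.6%. At an unadjusted p under 0.05 it was larger for 1 member, Hoxb9. The 5 were Hoxd9 (-7.72 ± 0.96), Hoxb2 (-5.81 ± 0.83), Hoxd8 (-5.24 ± 0.28), Hoxb3 (-4.92 ± 0.82) and Hoxb4 (-4.23 ± 0.48), with adjusted p between 2.30e-10 and 1.06e-04. They are the 5 genes with most reads in brain EC, and in 4 of them, all but Hoxb4, kidney EC was also called below the kidney translatome. The median over all genes in this fit was -0.16. For members without a read in either forebrain group of this fit the term could not be estimated. Only 20 members had a read in brain EC or the brain translatome, so the 38 overstate how many could be called.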

How the data were processed

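Per the labels and the study's methods, the authors prepared poly(A) TruSeq libraries without strand marking, mapped the reads with RUM to GRCm38 (mm10) and counted them per RefSeq gene with rpkmforgenes. The deposited count of a gene is its unnormalized number of reads, and the deposited RPKM values are those reads scaled by the authors to transcript length and library size. For the tests, the quasi-likelihood method of edgeR 4.0.16 (R 4.3.3) with TMM factors was applied to the counts, two-sided, each comparison on its own 6 libraries, over all rows with at least 1 count, with Benjamini-Hochberg adjustment over those rows and a threshold of 0.001; differences are log2 with the SE. The test was checked on simulated counts. Count ratios over groups carry exact 95% intervals, and a group without reads was set at 3 counts; both cover counting error only. Levels and shares use RPKM. Positions come from GENCODE M21 and sequences from RefSeq tables; Python 3.11.15 made the summaries. The members, gene lists and tests were chosen with earlier results of these data known. Values in every kidney library are printed for the 30 members with a mean of at least 5 RPKM in a group or in paralogue groups 10 and 11, and 8 others are given by range. Some items are not reported here. The 3 libraries of a group came from separate pools of organs. Total RNA and translatome of one replicate number came from the same tissue sample (correlation of deviations 0.68, 0.616 and 0.636 in kidney and 0.635, 0.529 and 0.684 in brain), so the replicate block was read as pairing there. The EC numbers of the 2 organs deviated together more weakly (0.336, 0.2 and 0.151). No label states that they share embryos, and an EC library pooled 2 brains or 6 kidneys, so pairing is not established for them. Alternatives were DESeq2 1.42.0, other scalings, a filter on low counts, another threshold, the replicate block, a joint fit, another reference group, sequencing runs and leaving out each library.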

Additional observations from a re-analysis of the deposited data

Results flagged for a closer look

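Of 38 members tested, 5 differed between the whole-organ and EC translatomes in how far kidney exceeded forebrain. The test was of the difference itself (edgeR interaction term, adjusted p under 0.001), and 16.5% of all genes were called in the same direction. Only the 20 members with a read in brain EC or the brain translatome could be called. The organ difference in EC minus that in the whole translatome was -5.81 on the log2 scale for Hoxb2, -4.92 for Hoxb3, -4.23 for Hoxb4, -5.24 for Hoxd8 and -7.72 for Hoxd9. The forebrain side of each rests on few reads: the brain translatome had 1 read on Hoxb2, 1 on Hoxb3, 2 on Hoxb4, 11 on Hoxd8 and 0 on Hoxd9 over 3 libraries, against 30, 26, 72, 372 and 25 in brain EC. Brain EC, kidney EC and the whole-organ libraries were sequenced in different runs.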

How the results depend on the processing

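Of 272 recomputed counts and shares 244 stayed within the limits set and 28 moved, and of 4036 recomputed differences of single members 3928 kept direction and side of the threshold, 68 no longer passed, 38 newly passed and 2 changed sign. The members higher in kidney EC than in the kidney translatome (2) numbered 4 at an adjusted p under 0.05, 1 against total RNA, 0 with total counts, 0 without the libraries of the mixed run, an alternative chosen after seeing the data that leaves 1 translatome library, and 0 to 2 when 1 library was left out. Against total RNA, Hoxa6 (-0.91) and Hoxb4 (-0.86) changed sign. Those lower in the kidney translatome than in total RNA (11) numbered 7 in 1 fit of all 21 libraries, and those higher (8) numbered 5 within the shared run, which holds 1 translatome library, and 5 to 8 when 1 library was left out. In brain EC 5 members were higher and 1 lower at an adjusted p under 0.05, and 4 and 1 in 1 fit of all libraries. Between brain translatome and total RNA 3 were lower at an adjusted p under 0.05, and 0 to 1 when 1 library was left out (1 without brain transcriptome replicate 1). In the interaction fit 1 member was larger in EC at an adjusted p under 0.05. The cause of these changes was not tested.

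With CPM in place of RPKM the cluster shares moved to 23.4% Hoxa, 12.4% Hoxc and 31.0% Hoxd in the transcriptome, to 26.9% Hoxa, 34.2% Hoxb, 14.9% Hoxc and 24.0% Hoxd in the translatome, and to 32.7% Hoxa and 41.1% Hoxb in EC, since longer genes then weigh more. Total counts shifted the median of all genes by 0.18 and 0.19 in the organ comparisons, by -0.37 in kidney EC and by -0.30 in brain EC.

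With the replicate number as a block, 1 member was higher and 21 lower in kidney EC than in the kidney translatome (Hoxb1 and Hoxc5, among others, no longer passed), where the libraries share only a number. In the paired comparison of kidney translatome and total RNA 9 were higher and 14 lower. No other count of calls moved under the block or the pairing. Summing rows that repeat a symbol gave no value, as no Hox symbol repeats. Over a group, 3 counts correspond to 0.0173 to 0.0280 CPM in forebrain and to 0.0243 to 0.0428 CPM in kidney, and the forebrain groups held 36 to 553 Hox reads each, so that there only large differences were detectable.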
